A study of Mus musculus with 6 samples.

Results

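Among the 31053 genes of the table, 9 were examined in the tumor cell data: the chymases Mcpt4 and Cma1, the tryptases Tpsb2 and Tpsab1, the carboxypeptidase Cpa3, the stem cell factor receptor Kit, the IgE receptor chains Fcer1a and Ms4a2, and the basophil protease Mcpt8. They were chosen because their UMIs had been seen to sit in few cells and in particular annotation labels of these same data. Their levels and their concentration are therefore given as a description and carry no test.

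CT26, a colon carcinoma line of the mouse, was grown in female Balb/c mice, and 5 days after treatment the tumor-infiltrating leukocytes were enriched with CD45+ beads and sequenced as single cells from droplets. Each captured transcript was counted once, at its 3′ end, by its unique molecular identifier (UMI). The sample labels name 6 tumors, 2 in each of 3 groups, treated with vehicle (an isotype control in the study's methods) or with a low or a high dose of a PD-1 GITR-L bispecific antibody. The labels give the high dose as 30 mg/kg, whereas the study's text names another dose for this experiment, and they give the low dose as 10 mg/kg in one field and as 30 mg/kg in another. The mice were bought at an age of 5 to 6 weeks, and which mice or tumors went into a library is not stated. The deposited cells carry 4 library names, M1, M2, M5 and M6, which were not matched to these tumors, so no value is compared between treatments and libraries are given one by one.

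Mast cells store proteases with histamine and heparin-like proteoglycans in granules, which they release when antigen crosslinks IgE on the receptor FceRI, built from the chains encoded by Fcer1a, Ms4a2 and Fcer1g. They depend on stem cell factor acting through Kit, a receptor tyrosine kinase that hematopoietic progenitors and some innate lymphoid and dendritic cells also carry. Connective tissue mast cells of the mouse are known for Mcpt4, Cma1, Tpsb2 and Cpa3, mucosal mast cells for Mcpt1 and Mcpt2, and basophils for Mcpt8 with FceRI and little Kit.

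The 4 libraries held 33961 cells and 915317050 UMIs, with a median of 11399 to 21801 UMIs per cell in a library. The 12 annotation labels are the authors' and none of them names mast cells or basophils. Across libraries 111 cell barcodes occurred more than once, none of them in a cell with 3 or more of the mast cell genes. The Myeloid label held 579, 595, 676 and 830 cells in M1, M2, M5 and M6. Intervals are exact 95% intervals and cover counting error only, not the spread between cells or libraries.

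In GENCODE M21 on GRCm38 all 9 genes are annotated as protein coding. Cma1 lies on chromosome 14 from 55941451 to 55944675, Mcpt4 from 56059629 to 56062313 and Mcpt8 from 56082166 to 56085273, all on the minus strand of one protease cluster. Tpsab1 (chromosome 17, 25343245 to 25345562, minus strand) and Tpsb2 (25366305 to 25369098, plus strand) are neighbors 20.7 kb apart. Cpa3 lies on chromosome 3 (20215620 to 20242181, minus strand), Kit on chromosome 5 (75574916 to 75656722, plus strand), Fcer1a on chromosome 1 (173221284 to 173227214, minus strand) and Ms4a2 on chromosome 19 (11615523 to 11623719, minus strand). Because the proteases are related, shared sequence was checked over the last 500 bases of each transcript: Tpsb2 and Tpsab1 shared none of their 50-base words, whereas 12.9% of those of Mcpt4 also occurred in Cma2 and 1.55% in Mcpt9, so reads of Mcpt4 and these relatives may not be fully separated.

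RefSeq promoters on GRCm38.p6 were found for 7 of the 9 genes. Those shown belong to 5 genes that the same cells carried, described further on, and to Mcpt8, which differed from them. Kit, which 67.1% of those cells carried, is not shown. Gata2, a transcription factor of mast cells and basophils, binds GATA motifs. The windows are the 250 bases before the RefSeq start, less any bases inside the GENCODE gene, and capitals mark GATAA, searched on both strands (it reads TTATC where it lies on the other strand).
Mcpt4 (chr14:56062314-56062560, minus strand): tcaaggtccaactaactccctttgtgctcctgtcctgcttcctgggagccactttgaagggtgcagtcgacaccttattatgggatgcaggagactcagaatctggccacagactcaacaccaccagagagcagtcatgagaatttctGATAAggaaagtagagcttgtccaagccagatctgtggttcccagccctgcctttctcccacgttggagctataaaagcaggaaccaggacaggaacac
Cma1 (chr14:55944676-55944925, minus strand): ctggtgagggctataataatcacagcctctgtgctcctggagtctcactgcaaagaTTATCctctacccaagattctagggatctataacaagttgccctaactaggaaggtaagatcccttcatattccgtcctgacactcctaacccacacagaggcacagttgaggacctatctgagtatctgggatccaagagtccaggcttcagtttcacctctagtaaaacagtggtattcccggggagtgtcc
Cpa3 (chr3:20242182-20242431, minus strand): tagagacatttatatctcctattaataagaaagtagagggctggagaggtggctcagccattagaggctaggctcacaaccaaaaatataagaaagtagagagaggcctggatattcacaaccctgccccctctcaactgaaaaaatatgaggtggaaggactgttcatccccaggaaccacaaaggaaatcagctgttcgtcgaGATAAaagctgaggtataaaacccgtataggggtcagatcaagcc
Fcer1a (chr1:173227230-173227479, minus strand): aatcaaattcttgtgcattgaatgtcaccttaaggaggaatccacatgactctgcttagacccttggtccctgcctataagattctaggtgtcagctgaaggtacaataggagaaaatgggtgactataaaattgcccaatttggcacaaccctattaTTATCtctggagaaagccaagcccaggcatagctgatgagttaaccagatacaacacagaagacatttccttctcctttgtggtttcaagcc
Ms4a2 (chr19:11623720-11623969, minus strand): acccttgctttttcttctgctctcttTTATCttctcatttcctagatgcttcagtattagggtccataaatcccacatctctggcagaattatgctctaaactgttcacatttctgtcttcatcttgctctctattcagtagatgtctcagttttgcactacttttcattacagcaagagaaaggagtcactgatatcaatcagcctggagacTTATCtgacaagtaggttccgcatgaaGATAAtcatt
Mcpt8 (chr14:56085274-56085447, minus strand): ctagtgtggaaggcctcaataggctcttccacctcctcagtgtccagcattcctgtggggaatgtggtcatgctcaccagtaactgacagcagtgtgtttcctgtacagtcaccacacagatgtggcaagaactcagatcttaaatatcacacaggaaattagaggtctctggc
GATAA began 102 bases before the start of Mcpt4, 194 before Cma1, 45 before Cpa3 and 92 before Fcer1a, and Ms4a2 held it at 224, 37 and 10 bases before the start. The windows of Mcpt8 and Kit did not hold these letters. The motif was in 5 of the 7 genes' windows and in 22.6% of all 32851 windows of 250 bases, a match of letters and not a shown binding site. Further motifs were searched, where N is any base. CANNTG was in the windows of Fcer1a, Cpa3, Cma1 and Mcpt8, against 66.2% of all windows. TTCNNNGAA was in none of the genes' windows, against 7.02% of all windows.

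The table was first summed by label, with levels in CPM, the UMIs of a gene per 1000000 UMIs of the label's cells. Of the 9 genes, 7 were highest in the Myeloid label, against 8.64% of the 16509 genes with at least 50 UMIs. The genes were chosen by this pattern, so nothing is read from the difference. Kit was highest in DC and Mcpt8 in the label Stem cells.

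Among the proteases, Mcpt4, a chymase of connective tissue mast cells, had 590, 492, 722 and 525 CPM in the Myeloid label of M1, M2, M5 and M6. The next label when pooled, ILC, had 26.6, 3.19, 10.8 and 15.5 CPM, and the highest value outside Myeloid was 46.1 CPM in NKT of M1, so the Myeloid values stood apart. Pooled, the Myeloid label had 580 CPM (572 to 588) and held 92.8% of all Mcpt4 UMIs.

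Cma1, the other chymase, had 985, 760, 1041 and 771 CPM in the Myeloid label of the 4 libraries and 881 pooled (872 to 890). Its next level, 62.0 CPM in Stem cells, came from 42 UMIs in a single cell. Below it T cell MEM (29.7 CPM, 7.40 to 125 over libraries), NK cells (27.1, 19.4 to 34.8) and ILC (27.1, 6.65 to 42.6) overlapped between libraries and had no common order.

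The tryptases had the same leading label. Tpsb2 had 411, 305, 359 and 268 Myeloid CPM in M1, M2, M5 and M6, and Tpsab1 had 702, 422, 482 and 365. For both, every library's Myeloid value was above every value of the other labels, where the highest library values were 56.9 CPM of Tpsb2 and 67.9 of Tpsab1, each in T cell MEM of M1.

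Cpa3, a granule carboxypeptidase, had 405, 184, 291 and 189 Myeloid CPM in the 4 libraries, with M1 well above the rest. In M5 the label Stem cells was higher, at 434 CPM, through 82 UMIs of 1 cell. Without M1 the pooled Stem cells value of Cpa3 (227 CPM, 181 to 282) stood beside the Myeloid value of 219 (214 to 224), and that of Ms4a2 (19.4, 7.81 to 40.01) beside 18.2 (16.7 to 19.8), so that 5 rather than 7 genes were highest in Myeloid.

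The alpha chain of FceRI, Fcer1a, had 68.0, 53.0, 68.9 and 48.8 CPM in the Myeloid label, and when pooled 8.85 in Stem cells, from 6 UMIs of 1 cell, and 1.98 in ILC. Its beta chain Ms4a2 had 22.4, 18.4, 22.2 and 15.3 CPM in Myeloid and 0.856 in ILC. In M5 the label Stem cells was higher, at 37.0 CPM from 7 UMIs of 1 cell, and it was the next label when pooled (10.3 CPM). Both chains were at 0 in DC of all 4 libraries, where a count of 0 allows up to 0.368 CPM.

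Kit was different. Its DC level was 44.7, 65.0, 70.5 and 60.3 CPM in M1, M2, M5 and M6, and DC was the highest label in each library. ILC was next when pooled, with 22.9, 30.8, 59.1 and 50.7 CPM by library, below DC in each though the ranges over libraries overlapped. T cell Naive of M1 (27.6 CPM, from 1 UMI) and T cells of M2 (32.0 CPM, from 4 UMIs) were above ILC of the same library. Myeloid was below both DC and ILC when pooled (24.2 CPM, 22.7 to 25.8). T cell MEM, NK cells, T cell EFF and NKT lay between 19.2 and 21.5 CPM when pooled, with counting intervals that overlapped, and Stroma had 0.247. In each of these lymphocyte labels M1 and M2 were below M5 and M6. In T cell EFF the values were 12.6, 12.7, 23.5 and 27.6 CPM, and in NKT 13.0, 8.11, 24.0 and 22.7.

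Mcpt8 had 108 CPM in Stem cells, all of it from 73 UMIs in 1 of the 37 cells of that label. The next labels were Myeloid (8.90 CPM), NK cells (6.30) and ILC (4.90). In the Myeloid label Mcpt8 ran from 0.677 CPM in M2 over 4.24 in M1 and 5.36 in M6 to 25.02 in M5. As a ratio of the highest to the lowest library this was a wider spread than for any other member there. In M2 and M6 NK cells were the highest label.

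**Figure D1:**
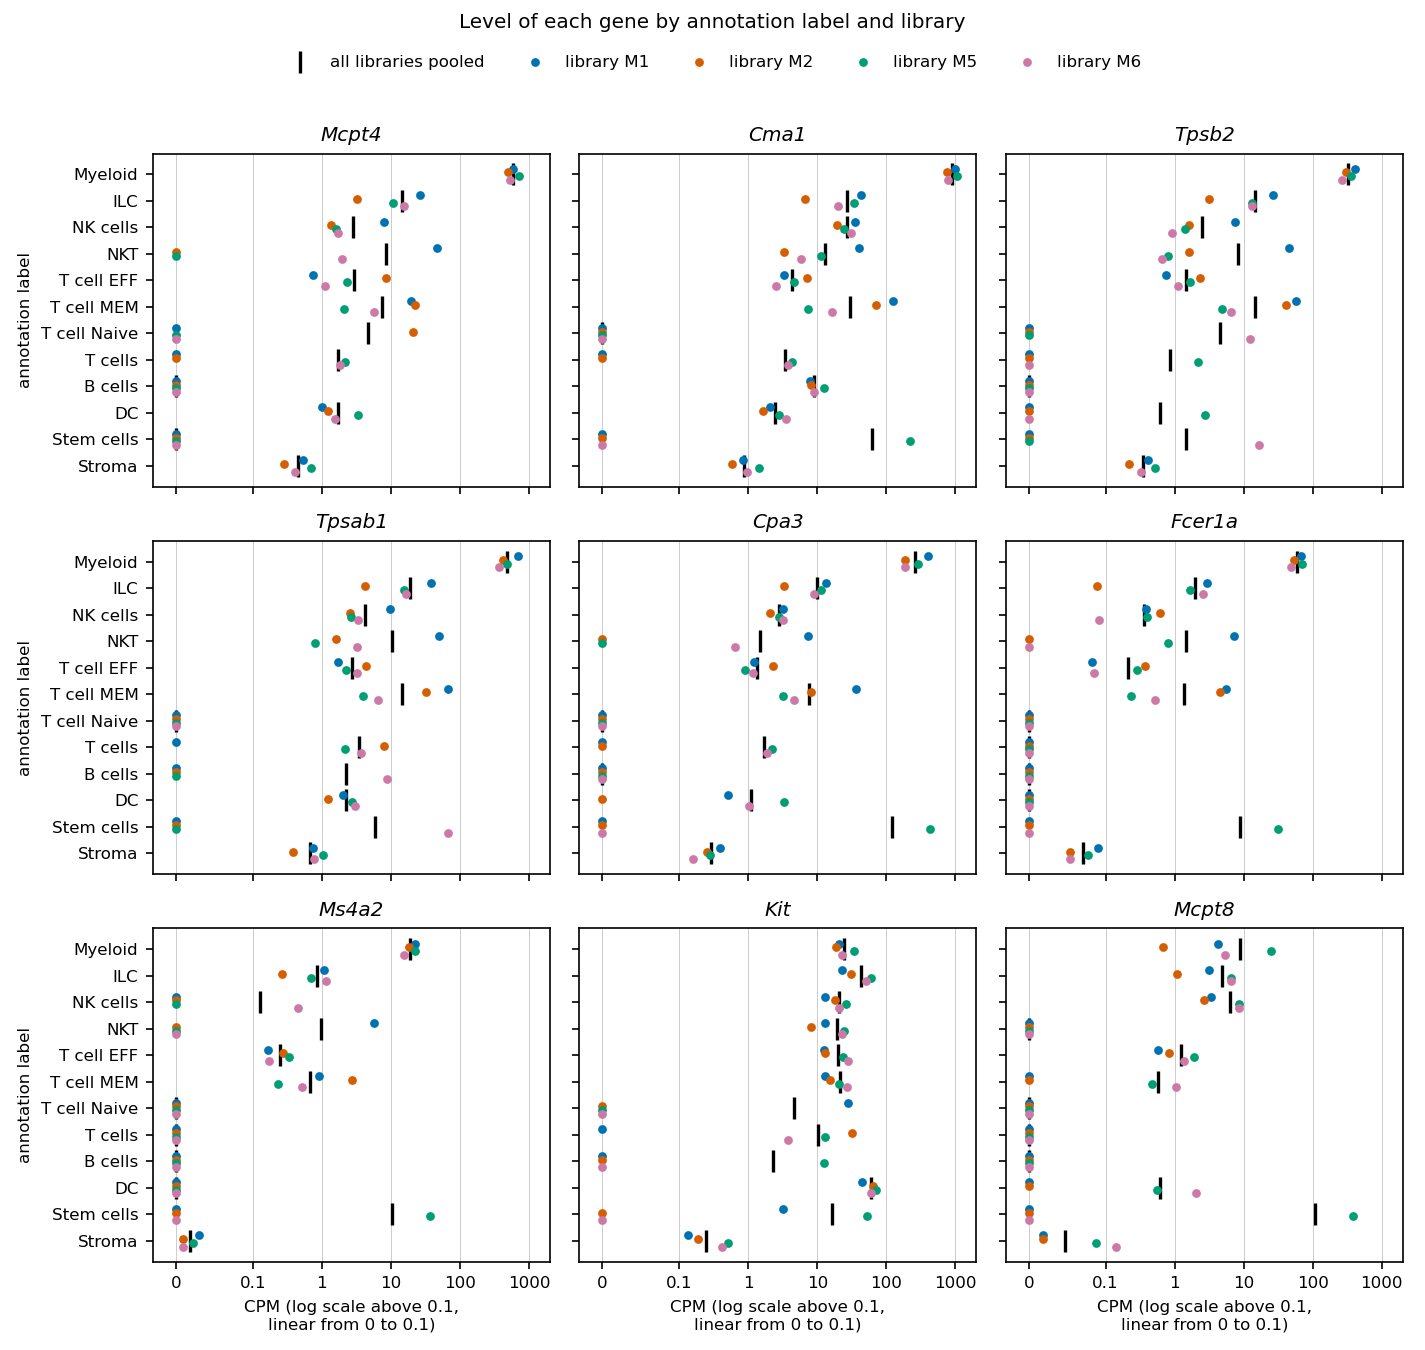
Level in CPM of each of the 9 genes by annotation label, on an axis that is logarithmic above 0.1 and linear below; dots are libraries and black ticks the pooled cells. In all, 7 genes peak in Myeloid, Kit is spread over DC, ILC and lymphocyte labels, and Mcpt8 has its highest point in Stem cells of M5.

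Label averages hide how few cells carried the UMIs. For each gene, cells were ordered by their UMIs and the fewest cells that held 50% and 90% of all UMIs were counted. Of the 9 genes, 8 had 50% of their UMIs in 100 cells or fewer, against 18.6% of the genes with at least 50 UMIs and 2.55% of the 12871 genes with at least 500 UMIs. The concentration was one reason for choosing the genes, so nothing is read from this difference.

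Mcpt4 had 23731 UMIs in 770 cells, of which 57 cells held 50% and 194 held 90%. The richest cell carried 462, and 428 of the 770 positive cells carried 1 UMI. Cma1 had the most UMIs, 37629 in 1997 cells, with 50% in 68 cells and 90% in 255, and 69.1% of its positive cells carried 1 UMI. These distributions thus joined a small number of very rich cells to many cells with a single UMI.

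Tpsb2 (14081 UMIs) and Tpsab1 (20500 UMIs) had 50% of their UMIs in 72 and 53 cells. A single cell held 967 UMIs of Tpsab1, 4.72% of the gene, and a single cell held 669 of the 11119 UMIs of Cpa3, 6.02%. In M1, 9 cells held 50% of the Cpa3 UMIs and 11 cells that of Tpsab1, compared with 14 to 17 cells in the other libraries.

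Fcer1a (2465 UMIs) and Ms4a2 (833 UMIs) needed 70 and 69 cells for 50%. Mcpt8 needed 25 of its 364 positive cells for 50% of 1102 UMIs but 254 for 90%, so that its remaining UMIs were thinly spread. Kit had 6690 UMIs in 3417 cells, no cell had over 17, and 831 cells were needed for 50%.

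**Figure D2:**
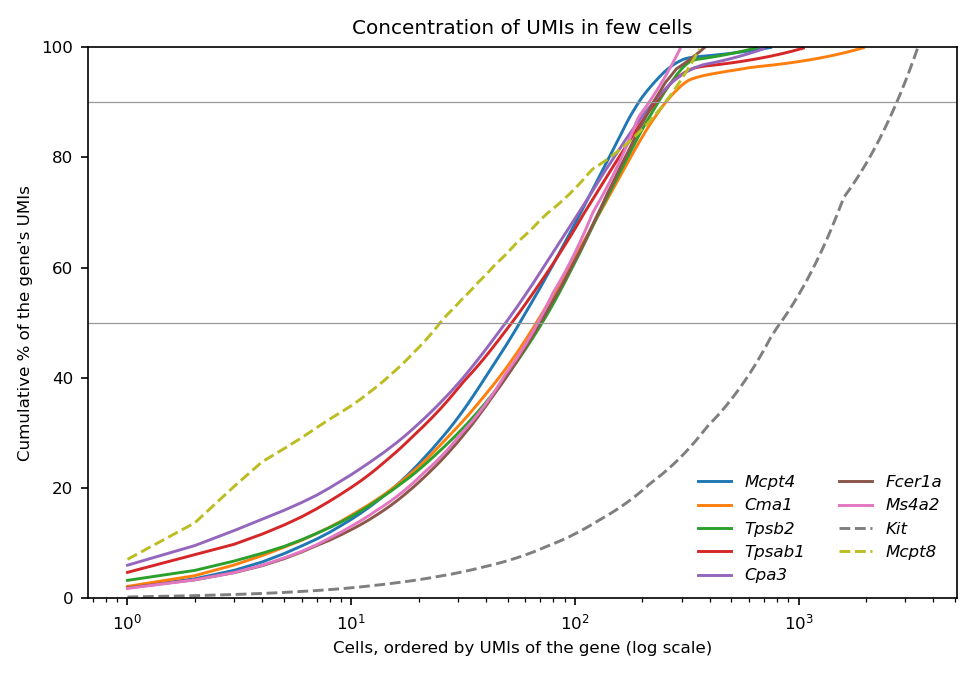
Cumulative percent of each gene's UMIs against the number of cells, ordered from the cell with the most UMIs, on a logarithmic axis; lines mark 50% and 90%. In all, 7 curves reach 50% between 50 and 72 cells, Mcpt8 at 25 and Kit at 831.

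To see whether the same cells carried the different genes, the number of the 8 mast cell genes (all but Mcpt8) with at least 1 UMI was counted in each cell. No gene was found in 27399 cells, 1 in 5653 and 2 in 511. There were 38 cells with 3 genes and only 8 with 4, but 24, 48, 114 and 166 cells with 5, 6, 7 and 8. The 4 libraries each had this dip, with 1 to 3 cells at 4 genes and 30 to 47 cells at 8. Just outside the limit used below, the 511 cells with 2 genes had a median of 2 UMIs of the 8 genes in all, and just inside it the 38 cells with 3 genes had a median of 4.5, against 320.5 in cells with 8.

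**Figure D3:**
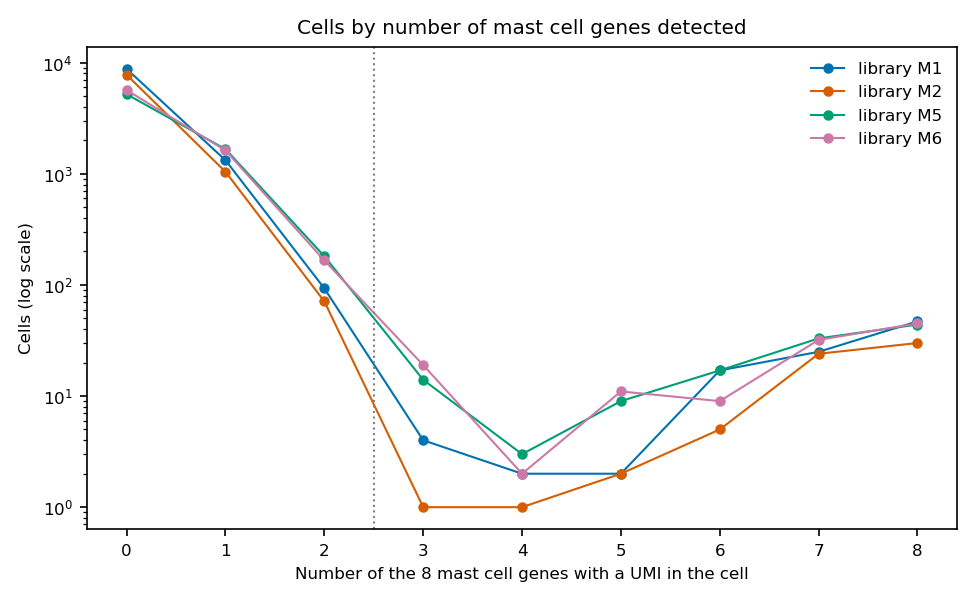
Number of cells, on a logarithmic axis, by how many of the 8 mast cell genes had a UMI, for each library; the dotted line marks the limit of 3 genes. All 4 libraries fall to 3 cells or fewer at 4 genes and have 30 or more at 8.

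Cells with at least 3 of the 8 genes are called multi-gene cells here. There were 398, 1.17% of all cells (1.06 to 1.29), and the libraries M1, M2, M5 and M6 held 97, 63, 120 and 118 of them. Of the 398, 307 were labelled Myeloid, 44 ILC, 15 T cell EFF, 11 NK cells, 8 T cell MEM, 7 Stroma and 4 DC, and NKT and Stem cells had 1 each. The share with the label Myeloid was 23.9% of the 46 cells with 3 or 4 genes and 84.1% of the 352 cells with 5 to 8. The 307 cells were 11.5% of the Myeloid label (10.3 to 12.7), and made up 13.1%, 9.41%, 12.9% and 10.6% of the Myeloid cells of M1, M2, M5 and M6. With a limit of 2 genes there would be 909 multi-gene cells, of which 39.5% were labelled Myeloid, compared with 77.1% of the 398. Without cells over 10% mitochondrial UMIs there would be 253, and with each cell thinned to 4000 UMIs, which drops shallower cells, 215.

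The multi-gene cells held 0.475% of all UMIs of the table but 98.2% of those of Mcpt4, 94.4% of Cma1, 97.8% of Tpsb2, 96.4% of Tpsab1, 96.3% of Cpa3, 97.4% of Fcer1a and 93.8% of Ms4a2. At least 10% of the UMIs lay in these cells for 8 of the 9 genes, against 0.563% of the genes with at least 50 UMIs. For the first 7 the share follows in part from the rule that picked the cells. Kit, also part of the rule, had 9.42% there, and 14.9%, 7.75%, 8.79% and 8.55% in M1, M2, M5 and M6. Its place below 10% depended on the limit and on depth: it had 20.3% with a limit of 2 genes, 15.2% after thinning to 2000 UMIs and 10.9% after thinning to 4000. Mcpt8, which was not part of it, had 36.1%, and by library 26.8%, 5.77%, 47.7% and 24.3%. Only 30 multi-gene cells carried Mcpt8, and 6 of them held 270 of its 398 UMIs there.

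Depth and quality moved with the class. The 307 Myeloid multi-gene cells had a median of 4655 UMIs, compared with 8853 in the other 2373 Myeloid cells, and 41.7% of them had over 10% mitochondrial UMIs, compared with 13.3%. The 44 ILC multi-gene cells had a median of 17145.5 UMIs, compared with 9749.5 in the other ILC cells, and a median scrublet doublet score of 0.117, compared with 0.0371. Among the Myeloid multi-gene cells 1.30% had a score over 0.25, compared with 2.87% of the other Myeloid cells. The part of depth, quality and doublets in the counts of cells was not tested.

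In the 307 Myeloid multi-gene cells the 8 genes made up a median of 5.26% of a cell's UMIs and up to 27.6%. Cma1 was detected in 98.7% of them, at a median of 165 UMIs per 10000 (151, 180, 192 and 160 in M1, M2, M5 and M6), and Mcpt4 in 95.4%, at 108 (76.4, 109, 148 and 94.2). Tpsab1, Tpsb2 and Cpa3 had medians of 80.5, 67.6 and 43.0 per 10000. Fcer1a had 11.7 and Ms4a2 3.42. Kit was found in 69.1% of the cells, at a median of 2.33 per 10000 (233 CPM), or 1 UMI. Mcpt8 was found in 5.54%. Pooled over the multi-gene cells of all labels, Kit had 145 CPM, and 127 to 192 by library. This was above its highest label, DC (60.2 CPM, 44.7 to 70.5 by library), and above ILC (43.4). Kit is part of the rule that picked these cells, which favors a higher value.

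Levels of the granule genes varied together from cell to cell. Over the 307 cells, where both levels of a cell share its depth and library, Pearson's r of log2(UMIs per 10000 + 1) was 0.93 for the tryptase pair Tpsb2 and Tpsab1, 0.86 for the chymase pair Mcpt4 and Cma1, 0.86 also for Cma1 and Tpsb2, and 0.82 for Cma1 and Cpa3. Kit had 0.18 to 0.32 with the other genes, at a median of 1 UMI a cell. The spread was wide: leaving out the lowest and the highest 10% of cells, Mcpt4 ran from 7.11 to 331 UMIs per 10000 and Cma1 from 27.3 to 479.

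Rich cells that lacked a partner gene were rare. Of 326 cells with at least 10 Cma1 UMIs, 7 had no Mcpt4 (2.15%, 0.868 to 4.37), 5 of them in M5, and 6 had no Tpsb2, 4 of them in M5. None of the 278 cells with at least 10 Mcpt4 UMIs lacked Cma1, none of the 296 with at least 10 Tpsb2 lacked Tpsab1, and none of the 237 with at least 10 Cpa3 lacked Cma1. With these numbers the upper interval bounds are 1.32%, 1.24% and 1.54%.

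Genes outside the 9 were then read in the same cells, from 7 lists of mast cell biology. Of the 59 listed genes with at least 50 UMIs, 29 were at least 2-fold higher in the Myeloid multi-gene cells than in the other Myeloid cells, compared with 8.08% of all genes with at least 50 UMIs. Of the 29, 6 (Mcpt1, Mcpt2, Tpsg1, Rgs13, Mrgprb1 and Mrgprb2) reached 50 UMIs only through the multi-gene cells, so that the limit of 50 UMIs favored their being higher. With 50 UMIs required outside those cells 23 of 53 were higher, compared with 7.99% of all genes. Of the 59, 8 were at least 2-fold lower, compared with 29.4% of all genes, and with a limit of 2 genes for a multi-gene cell this count of 8 fell to 1, so that the counts of lower genes by list do not carry over to that limit. Il3, which is among these 8, rests on 0 against 6 UMIs, with an interval of the fold from 0 to 13.9 that includes equal levels. The median fold over all these genes was 0.768, and with 50 UMIs outside the multi-gene cells the list medians were 97.3 for granule genes, 9.86 for surface receptors and 0.881 to 1.64 for FceRI signaling, transcription factors, lipid mediators, cytokines and growth factors.

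Granule genes gave 8 of 10 higher, or 5 of 7 with 50 UMIs required outside the multi-gene cells, and none lower. Of all genes 8.08% were higher, or 7.99% with that requirement, and 29.4% lower. Hdc, which makes histamine, had 1237 CPM in the Myeloid multi-gene cells and 106 in the other Myeloid cells, a fold of 11.7 (11.1 to 12.3), between 6.77 and 21.8 in the 4 libraries. Serpinb1a, an inhibitor of granule proteases, had 1304 and 10.4 CPM, and Tph1, the first enzyme of serotonin synthesis, 752 and 0.112. Srgn, the core protein of granule proteoglycans, was 1.49-fold higher (1.46 to 1.53) in cells where all 307 carried it, and Mcpt9 was at 0 in the whole table.

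Surface receptors gave 9 of 11 higher, or 7 of 9 with that requirement, compared with 8.08% and 7.99% of all genes. Mrgprb1, of the Mas-related receptor family found on mast cells, had 401 CPM in the multi-gene cells and 0.140 in the other Myeloid cells. Il1rl1, the IL-33 receptor, was 9.86-fold higher (9.15 to 10.6) and Cd63, a granule membrane protein, 3.002-fold (2.88 to 3.13), both in all 4 libraries. By label both were highest in Stroma, at 273 and 1015 CPM, compared with 509 and 1202 in the Myeloid multi-gene cells. Csf2rb, the common beta chain of the IL-3 and GM-CSF receptors, was at 209 and 207 CPM, with a ratio of 1.01 (0.918 to 1.11).

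FceRI signaling split. The gamma chain Fcer1g, which Fc receptors of many myeloid cells share, had 2097 and 2011 CPM, a ratio of 1.04 (1.01 to 1.07). The adaptors Lat2 and Lat were 4.82-fold (4.55 to 5.11) and 5.19-fold (4.63 to 5.81) higher, while the kinase Lyn was at 0.574 (0.502 to 0.655). By label Lat was highest in T cell Naive, at 257 CPM, above the 182 CPM of the Myeloid multi-gene cells. Lat2 was highest in NK cells, at 212 CPM, below the 677 CPM of those cells. Of the 12 genes 4 were higher, compared with 8.08% of all genes, or 3 of 11 with that requirement. Lower were 3 of the 12, compared with 29.4% of all genes, so nothing is read from this count. The lower ones were the kinase Syk (0.261), the phospholipase Plcg2 (0.325) and the adaptor Gab2 (0.262), named here after their values were seen.

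Among transcription factors 2 of 7 were higher and 1 lower, compared with 8.08% and 29.4% of all genes, so nothing is read from the lower count. Gata2 was 58.1-fold higher (47.4 to 71.8), between 28.4 and 100.6 by library, and Tal1, a partner of GATA factors named after its value was seen, 51.8-fold (26.5 to 109). Spi1, a factor of macrophage and granulocyte development, was at 0.296 (0.251 to 0.348), below the other Myeloid cells in each library. Runx1 and Mitf were at 0.594 and 1.33.

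Lipid mediator genes had 3 of 7 higher and 1 lower, compared with 8.08% and 29.4% of all genes. The same shares apply to the cytokines and growth factors below, and nothing is read from the counts of lower genes. Hpgds, the hematopoietic prostaglandin D synthase, was 5.13-fold (4.41 to 5.95) and Alox5, the first enzyme of leukotriene synthesis, 26.3-fold (20.9 to 33.4) higher, and Ptgs2, an inducible cyclooxygenase, was at 0.395 (0.367 to 0.423). Alox5ap was at 1.14. Cytokines had 2 of 8 on each side, with Tnf at 0.367 and Osm at 0.493. Il4 was 10.8-fold higher pooled (8.87 to 13.1) but 90.3, 206, 1.76 and 41.8 by library, M5 being the low one, and Il6 ran from 0.486 in M5 to 4.62 in M1. Growth factors that act on mast cells had 1 of 4 higher, Tslp, and 1 counted as lower, Il3. Tslp, an epithelial cytokine, had 3.66 and 0.307 CPM, a fold of 11.9 (4.16 to 32.5) that rests on 8 UMIs in the multi-gene cells. Il33, the ligand of Il1rl1, had 1 UMI in them, with a ratio of 0.682 (0.0166 to 4.18). Kitl, the ligand of Kit, was at 1.08 (0.690 to 1.62) and highest in the Stroma label (55.4 CPM), and Il3 was at 0 in the Myeloid multi-gene cells and at 0.168 CPM, from 6 UMIs, in the other Myeloid cells. Il9 was at 0 in the whole table.

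Markers of other cells were read beside these counts. The 6 macrophage genes were each lower in the Myeloid multi-gene cells, with a summed level of 1542 CPM against 9494 in the other Myeloid cells, though it ran from 200 to 2716 CPM over the libraries and none of the 6 was at 0. At least 1 macrophage UMI was found in 26.4% of the former and 96.5% of the latter. The 4 neutrophil genes were lower as well (395 against 1446 CPM summed), with ranges over the libraries that overlapped (159 to 963 and 851 to 2032). The 5 T cell genes (596 against 502 CPM) and the 3 NK cell genes (107 against 95.1) also overlapped between libraries. Summed levels of the other lists were 233 against 29.3 CPM for 4 basophil genes, 201 against 134 for fibroblast, 134 against 224 for platelet, 15.1 against 29.3 for DC and 3.66 against 8.01 for B cell genes. Of these, only the basophil ranges over the libraries did not overlap (202 to 281 and 26.7 to 30.3). Most of the basophil sum came from Cd200r3 (178 against 1.68 CPM), which is also in the surface receptor list. Il3ra had 30.2 against 20.5 CPM, Itga2 19.2 against 7.18 and Prss34 5.03 against 0. The fibroblast values ran from 11.4 to 363 and from 71.4 to 244. The libraries went opposite ways in the fibroblast genes: Dcn, a matrix proteoglycan, was 9.60-fold higher in M6, compared with folds of 0.164 to 0.620 in the other 3 libraries. Their part in the results was not tested. Of the 3 eosinophil genes Prg2 and Epx were at 0, and of the 4 progenitor genes (144 against 33.7 CPM) Prtn3 was at 0 while Cd34, found on progenitors and on mouse mast cells, was 4.33-fold higher (3.80 to 4.93). Cd34 was however highest in the Stroma label, at 280 CPM, compared with 135 in the Myeloid multi-gene cells.

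The genes most like the 9 by the share of their UMIs in multi-gene cells, among genes with at least 50 UMIs, were Mcpt1 (99.7%), Speer4e (98.9%), Gm21190 (98.8%), Mcpt2 (98.1%), Rgs13 (96.8%), Cma2 (96.2%), Mrgprb1 (96.2%), Tpsg1 (93.8%), Tph1 (93.5%) and Mrgprb2 (92.7%). Of the 16509 genes with at least 50 UMIs, 18 had a share of at least 90%. All the listed genes but Tph1 had fewer than 50 UMIs outside the multi-gene cells. They passed the limit of 50 UMIs only through those cells, which favored a high share, so nothing is read from the order. The reach of the listed genes differed: Mrgprb1 was found in 279 of the 398 cells, Mcpt2 in 84 and Mcpt1 in 11. By the correlation of log2(CPM + 1) over the 12 labels, the genes nearest to Mcpt4 were Rnf149 (r = 0.96), Aatk (0.95) and Tph1 (0.95), to Tpsb2 Mcpt2 (0.95), and to Fcer1a Hs6st2 (0.97). For Kit they were Serf2 (0.91) and Pfn1 (0.90), genes with far more UMIs. The nearest gene was Igsf6 for Cma1 (0.91), Mrc1 for Tpsab1 (0.94), Rab44 for Cpa3 (0.94), Slco2b1 for Ms4a2 (0.97) and Asb4 for Mcpt8 (0.97). Such profiles rest on 12 points in which the smallest label weighs as much as the largest.

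The mucosal protease Mcpt2 sat in a subset of the multi-gene cells. Of them, 26 carried at least 10 Mcpt2 UMIs and held 85.5% of the gene, and M1 had 15 of these cells, M2 had 7, and M5 and M6 had 2 each. These 26 cells had 11331 CPM of Mcpt4 and 18082 of Cma1, the 58 cells with 1 to 9 Mcpt2 UMIs had 15342 and 22100, and the 314 multi-gene cells without Mcpt2 had 3920 and 6071 CPM. By library the cells without Mcpt2 were the lowest for both chymases in each of the 4, while the middle group was the highest in M1, M2 and M6 but not in M5, where the group with at least 10 UMIs has 2 cells. The Myeloid label covered 24 of the 26, 53 of the 58 and 230 of the 314 cells, and its part in these levels was not tested.

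Outside the multi-gene cells the members parted. Cma1 left 955 UMIs in 619 of 4387 cells labelled NK cells, with at most 10 in a cell, and 310 UMIs in 248 of 4584 ILC cells. By library 13.9%, 10.5%, 15.1% and 15.9% of the NK cells had a Cma1 UMI. Mcpt4 had 41 UMIs in 40 NK cells, and 2 of those 40 carried Cma1, against 14.1% of all NK cells outside the multi-gene cells. The rule that set the multi-gene cells aside removes cells with both genes and a further one, so nothing is read from this overlap.

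The UMIs of both genes were set on one scale as the ratio of Cma1 to Mcpt4. In the multi-gene cells it was 1.66, 1.54, 1.49 and 1.45 in M1, M2, M5 and M6. In the NK cells outside them it was 39.0, 18.4, 30.1 and 17.4, in ILC 10.5, 5.38, 6.71 and 7.86, and in Stroma 1.76, 2.05, 2.38 and 2.36. T cell EFF outside them had 112 Cma1 and 30 Mcpt4 UMIs when pooled, and Myeloid 114 and 27, ratios that were also above the multi-gene values. In each library the NK and the ILC interval lay above the multi-gene interval, while that of Stroma overlapped it in M1 and M2. The rule that set the multi-gene cells aside uses both genes, and with those cells kept in the ratio was 4.44, 14.5, 15.5 and 17.5 in NK cells and 1.6, 2.08, 3.11 and 1.30 in ILC. The NK intervals then still lay above the multi-gene intervals in each library, whereas the ILC interval did so in M5 alone. Tpsb2 over Mcpt4 was by comparison 0.732 in NK cells (0.441 to 1.20) and 0.591 in multi-gene cells (0.578 to 0.603), with intervals that overlapped. With the 11 multi-gene cells kept in, the NK label had 27.1 CPM of Cma1 and 2.81 of Mcpt4, compared with 24.2 and 1.04 without them.

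**Figure D4:**
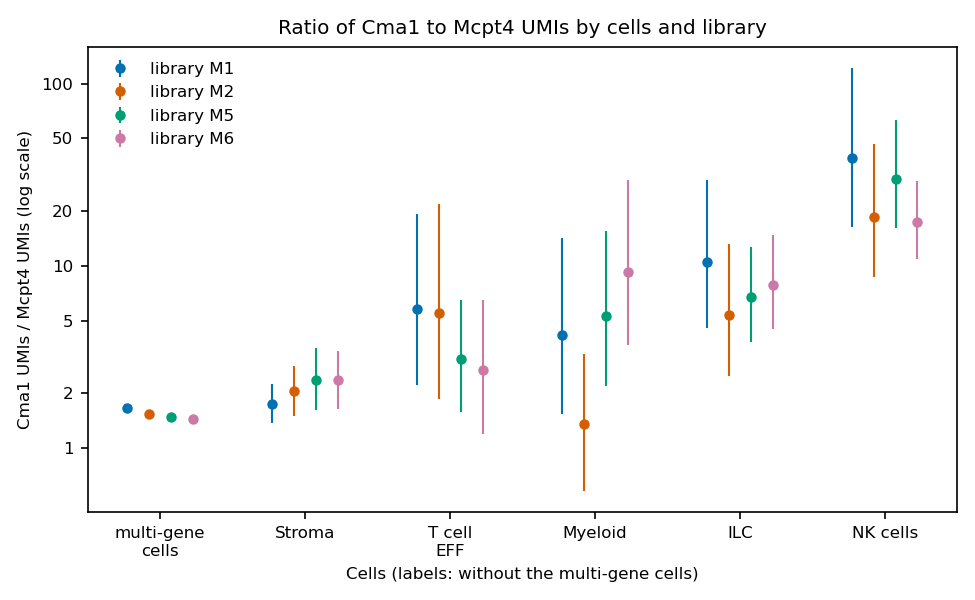
Ratio of Cma1 to Mcpt4 UMIs on a logarithmic axis, by library, in multi-gene cells and in the cells of 5 labels without them; bars are exact 95% intervals for counting error. The NK cell points lie between 17.4 and 39.0 and the multi-gene points between 1.45 and 1.66.

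The NK share was also read against depth and against cells that should lack the gene. NK cells had 14.1% with a Cma1 UMI (13.1 to 15.2) at a median of 5397 UMIs per cell, and Stroma had 3.12% (2.85 to 3.40) at 40698.5, T cell EFF 2.68% and ILC 5.41%. B cells had 3.23% at 2811, but with 4 of 124 cells (0.886 to 8.05). After each cell was thinned to 2000 UMIs, with 180 NK, 108 ILC, 88 T cell EFF, 45 Stroma and 12 B cells too shallow to be kept, 7.82% of NK cells (7.03 to 8.67), 1.59% of ILC, 0.340% of T cell EFF, 0.217% of Stroma and 3.57% of B cells (0.982 to 8.89) had one. Thinned to 1000 and to 4000 UMIs, NK cells had 4.63% and 6.27%, with 1514 NK cells too shallow for 4000. ILC had 0.676% and 2.02%, T cell EFF 0.221% and 0.752%, and Stroma 0.0574% and 0.365%. From 2000 to 4000 UMIs the NK share thus fell while those of ILC, T cell EFF and Stroma rose. At each depth the NK value exceeded those of ILC, T cell EFF and Stroma, while its interval overlapped that of the few B cells.

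In NK cells with and without Cma1 the NK receptor gene Ncr1 had 404 and 456 CPM, and Klrb1c 112 and 110. Klrb1c is a further NK receptor gene, and it and the other markers compared within NK cells, DC and ILC were picked after their values were seen. Itga2, an integrin of NK cells and basophils, had 74.8 CPM in NK cells with Cma1 and 36.9 in those without, and 37.6% against 24.7% of the cells carried it. The cells with Cma1 had a median of 4130 UMIs and those without 5736. The macrophage gene C1qa was also higher with Cma1, at 67.1 and 27.1 CPM. The part of depth and of transcripts of other cells in these values was not tested.

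Kit outside the multi-gene cells was found in 35.0% of DC, 29.4% of ILC, 16.4% of T cell EFF, 11.5% of T cell MEM and 10.6% of NK cells, and in 0.804% of Stroma and 1 of 124 B cells (0.806%). After thinning to 2000 UMIs ILC (9.05%, 8.22 to 9.93) and DC (8.60%, 6.36 to 11.3) had overlapping intervals, above NK cells (3.28%, 2.76 to 3.86), T cell EFF (3.94%, 3.32 to 4.63) and Stroma (0.0831%). Within DC, cells with a UMI of Xcr1, a chemokine receptor of cross-presenting dendritic cells, had 74.6 CPM of Kit (66.2 to 83.9) and those without had 48.3 (42.0 to 55.4). The corresponding values for Itgae, an integrin chain, were 77.5 and 47.6. The ranges over libraries overlapped, at 58.1 to 88.0 and 36.0 to 64.4 CPM for Xcr1. For Itgae they were 54.8 to 96.8 and 36.2 to 59.4. The cells with a marker were deeper, at medians of 19950 and 8177 UMIs for Xcr1. Markers of other cells differed as well between DC with and without Kit: Cd3g had 149 and 35.7 CPM, Cd3d 71.2 and 18.2, Lyz2 732 and 319 and C1qa 16.9 and 62.6, and their part in the Kit values was not tested.

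In ILC, cells with Kit were deeper than those without, at medians of 14026 and 8292 UMIs. Ncr1 had 433 and 421 CPM in them and Eomes, a factor of NK cells, 134 and 165. Some markers of other cells were higher with Kit: C1qa had 136 and 67.8 CPM, Lyz2 of macrophages and granulocytes 739 and 424, and Cd8a of T cells 88.3 and 53.0, and their part in the Kit values was not tested. In NK cells Itga2 had 19.3 CPM in cells with Kit and 46.3 in cells without, opposite in order to its values with Cma1, at median depths of 10799.5 and 5042 UMIs.

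Mcpt8 had the most mixed cells, and 25 cells with at least 10 UMIs held 50% of its UMIs. They came from M1 (4), M5 (11) and M6 (10), and M2 had none. These 25 fell into 3 kinds, set after their values were seen, by at least 40 Cma1 UMIs, then among the rest by a UMI of Cd200r3, an activating receptor of basophils and mast cells, or by neither. In this order the kinds had median depths of 15545.5, 6984 and 33600.5 UMIs per cell. Mcpt8 was at 1727, 1705 and 470 CPM in them, so that 10 UMIs did not mark a like level.

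The first kind, 6 cells with 4 in M5 and 2 in M1, had 42 to 736 Cma1 UMIs with 82 to 396 of Cpa3, and each had Kit (2 to 17 UMIs), Fcer1a and Ms4a2. Mcpt4 was in 2 of them and Tpsb2 in 2. Of the 6, 3 held 288 of the 300 Mcpt1 UMIs of the table, and none held Mcpt2. All 6 also carried Gzmb, from 96 to 243 UMIs, with 1 UMI of Gzmc at most. The Stem cells cell was one of these, and the other 5 were labelled Myeloid.

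The second kind, 9 cells with 8 in M6 and 1 in M5, had 10 to 26 Mcpt8 UMIs, no Mcpt4 and no Tpsb2, and 1 to 5 UMIs of Cpa3 in 7 of them. They had a median of 7 Gata2 UMIs and 32 Hdc UMIs, and Fcer1a was found in 4 of them, Ms4a2 in 6 and Kit in 1. Il4, a cytokine of basophils and some T helper cells, had 330 UMIs in 5 of them, 28.7% of the table, and 269 were in 1 cell. Of the 9, 5 were labelled Myeloid and 4 ILC.

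The other 10 cells, 6 in M5, held 160 Mcpt8 UMIs with no Mcpt4, Cpa3, Fcer1a or Ms4a2, and with a median of 278.5 Gzmb UMIs. Gata2 was found in 1 of them, with 17 UMIs, Il4 in 1, with 179 UMIs or 15.6% of the table, and Hdc in 2, with up to 32 UMIs. Ncr1 was found in 8 of them, and 5 were labelled ILC, 2 NK cells, 2 T cell EFF and 1 Myeloid. At 1 to 9 UMIs a cell, Mcpt8 was also found in lymphoid labels: outside the multi-gene cells 115 NK cells had 186 UMIs and 125 ILC cells had 191. Those cells were deep, at medians of 20235 and 24409 UMIs. With the richer cells counted in, after thinning to 2000 UMIs 0.452% of NK cells (0.272 to 0.704), 0.469% of ILC (0.291 to 0.716) and 0.0128% of Stroma had a UMI. No B cell of 112 had one, with an upper interval bound of 3.24%.

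Since Cma1, Mcpt4 and Mcpt8 share a cluster with granzyme genes, all 15 protein-coding genes from Cma1 to Gzmb, over 321 kb, were read in order. This set was chosen after values of its genes had been seen. In the multi-gene cells Cma1 had 8170 CPM, Cma2 11.7, Mcpt1 68.7, Mcpt2 299, Mcpt4 5359, Mcpt8 91.5 and Ctsg, cathepsin G, 230. Of the UMIs of these 398 cells, 49.7% came from the 91 that were not labelled Myeloid, at a median of 16392 UMIs per cell, so these levels are averages over unlike cells. In the 307 Myeloid ones Cma1 had 15254 CPM, Mcpt4 10061, Mcpt2 543, Mcpt8 111 and Ctsg 420, and in the 91 others 1005, 604, 53.2, 71.7 and 38.4. The pooled Mcpt8 value was 33.4, 7.49, 191 and 55.3 CPM in M1, M2, M5 and M6. In the Myeloid ones Mcpt1 had 6.55, 9.69, 549 and 2.71 CPM in these libraries, and Mcpt2 1237, 1024, 92.8 and 89.3. In NK cells Cma1 had 24.2, Cma2 and Mcpt2 0.0254 each, Mcpt4 1.04, Mcpt8 6.29 and Ctsg 15.7, and Mcpt1 was at 0.

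Of the 7 granzyme genes of the cluster, 6 were 2.21-fold to 3.16-fold higher in NK cells than in multi-gene cells, among them Gzmb with 4953 and 1757 CPM. The multi-gene values again join unlike cells: Gzmb had 1433 CPM in the Myeloid ones and 2085 in the others, and Gzmc 924 and 2470, each below the NK value. By library Gzmb ran from 694 to 2293 CPM in the Myeloid ones. Gzmn, with 27 and 1 UMIs, had a fold of 2.98 with an interval from 0.491 to 122 that includes equal levels. Ctsg set NK cells and ILC (9.92 CPM) apart from T cell EFF (0.211), although Gzmb had 2442 CPM in T cell EFF.

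**Figure D5:**
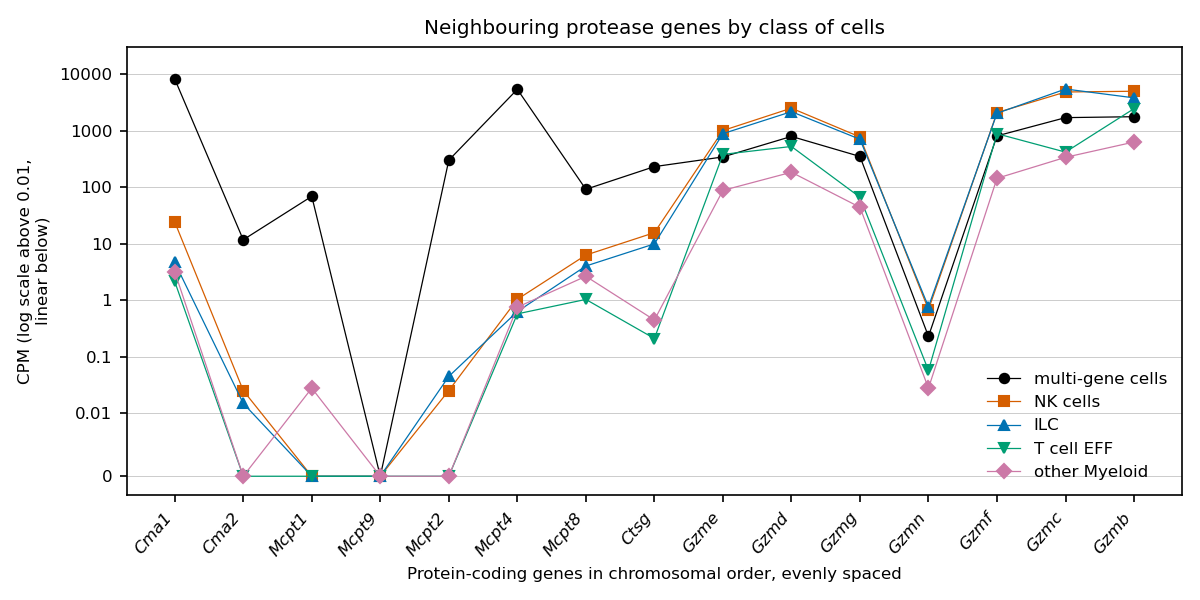
Level in CPM of the 15 neighboring genes, in chromosomal order from Cma1 to Gzmb and evenly spaced, in multi-gene cells and in 4 labels without them; the axis is logarithmic above 0.01. Multi-gene cells are highest from Cma1 to Ctsg, save Mcpt9 at 0, and NK cells and ILC are higher than multi-gene cells at each granzyme gene, Gzmn resting on 1 UMI in the multi-gene cells.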

How the data were processed

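The 9 genes and all gene lists were chosen with earlier results of these data known, so no test was run on them. CT26 tumor leukocytes were profiled with 10x 3′ chemistry, and the deposited table holds raw UMI counts per gene and cell, made by the authors with Cell Ranger 3.0.2 on mm10 (GRCm38), with their annotation label and library name for each cell. The 4 library names were not matched to the 6 labelled samples, so the comparison of treatments listed in the design was not run. Counts were summed per label, class and library and divided by the cells' UMIs (CPM). A multi-gene cell had a UMI of at least 3 of the 8 genes without Mcpt8. Folds between classes have exact 95% intervals from the binomial split of the counts, levels exact Poisson and shares exact Clopper-Pearson intervals, all for counting error only; for a level, a count of 0 allows 3 UMIs. Cells were thinned without replacement with a fixed seed. No doublets were removed in the main values: scrublet scores from scanpy 1.11.5, per library, were used with a limit of 0.25 as an alternative. Of each list the 4 genes with the most UMIs in multi-gene Myeloid cells and those at 0 were named, with the 10 genes most like the 9 by share, and the 5 per gene by label correlation were computed. Alternatives left out each library, cells over 10% mitochondrial UMIs or likely doublets, and changed the limits. Positions are from GENCODE M21 and promoters from RefSeq GRCm38.p6. Scripts (Python 3.11.15, numpy 2.4.6, scipy 1.17.1, pandas 2.3.3) were tested on simulated data.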

Additional observations from a re-analysis of the deposited data

How the results depend on the processing

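Of the 9 genes, 8 had 50% of their UMIs in 100 cells or fewer under each alternative run, and the number highest in Myeloid was 5 to 7 with a library left out, 5 only without M1. The 398 multi-gene cells became 253 without cells over 10% mitochondrial UMIs, 215 after thinning to 4000 UMIs and 909 with a limit of 2 of 8 genes, and ran from 278 to 335 with a library left out. With Kit not counted there were 375, an alternative chosen after the data were seen. Of the listed genes, 8 were at least 2-fold lower, 1 with the limit of 2 genes and 7 to 8 with a library left out, while 29 were higher, 29 to 31 with a library left out and 23 of 53 with 50 UMIs required outside the multi-gene cells, an alternative chosen after the data were seen, as was keeping those cells in for the ratio of Cma1 to Mcpt4, which became 9.66 instead of 23.3 in NK cells and 1.85 instead of 7.38 in ILC. Of the 10 genes most like the 9, 6 were again among the 10 with at least 20 UMIs, 5 with at least 200 UMIs, and 8 to 9 with a library left out. The share of multi-gene cells labelled Myeloid ran from 39.5%, with the limit of 2 genes, to 88.7% over these alternatives. No paired analysis was possible because the libraries were not matched to the labelled samples and no result comes from a test. Depth limits the shares of cells with a UMI, and 124 B cells and 37 Stem cells limit the values of those labels.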
